A study of Homo sapiens with 14 samples.

Results

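Transcripts of 10 genes of the extracellular matrix and its integrin receptors, out of 19775 genes with a probe set of their own on the array, were examined in human HEK293 lines that carry HOXD9 or HOXD13. They are FN1 (fibronectin), ITGA5, ITGAV and ITGB1 (integrin subunits), LAMA4, LAMB1 and LAMC1 (laminin chains), COL18A1 and COL4A1 (collagens) and LOX (lysyl oxidase). All 32 probe sets annotated to these genes, out of 54675, were taken. The genes were chosen by name with earlier results of these arrays known, among them a higher FN1 value in the HOXD13 lines. The members' values in HOXD13 lines against V5 vector arrays are therefore a description and carry no test, while the HOXD9 lines against HA vector arrays were tested.

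HEK293 is an established human embryonic kidney cell line, and HOXD9 and HOXD13 are homeodomain transcription factors that pattern limbs and the urogenital tract. Each group was transfected. There were 3 arrays of an HA-tag vector, 3 of a V5-tag vector, 4 lines with HA-tagged HOXD9 and 4 lines with V5-tagged HOXD13. The sample titles name selection by G418 for a stable clone in HA vector 2 and 3 only. Under G418 only cells with the resistance gene of the plasmid survive. The 4 lines of a HOX gene were a mixed population, called mix, and clones a, b and c picked out of it, so they share a source. The vector arrays are labelled biological replicates without a word on how the cultures were separated. P-values therefore measure only how these samples spread, which may be technical in part. They do not measure how separate transfections of a HOX gene would vary. The promoter that drives the HOX genes is not given in the sources used here.

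Fibronectin is a secreted glycoprotein that cells assemble into fibrils by binding it with integrins, receptors made of 1 alpha and 1 beta chain that join the matrix outside to actin inside. Laminins are heterotrimers of an alpha, a beta and a gamma chain, and together with type IV collagen they form the sheets of basement membranes, on which kidney epithelium rests. Lysyl oxidase oxidises lysines of collagen and elastin so that the fibres crosslink.

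The deposited values are log2 expression values made with GCRMA, which corrects background by probe sequence and brings arrays to 1 distribution. The HA set (HA vector and HOXD9) and the V5 set (V5 vector and HOXD13) were normalized separately, with a 75th percentile of 6.27 and 7.02. Group levels were therefore compared only within a set. Probe sets were ranked by mean value only to choose 1 per gene and to name the brighter and dimmer ones. Levels were summed over genes only for the marker lists. The median SD of a tested probe set was 0.05 and 0.06 in the HA and V5 vector arrays, against 0.28 and 0.27 in the HOXD9 and HOXD13 lines. HOXD13 clone c stood apart from its sister lines: the 3' minus 5' difference of the array's ACTB controls, a measure of RNA quality, was 2.80 there and 1.82 to 2.13 in the other HOXD13 lines, against 2.19 to 2.26 in the V5 vector arrays. For many differences, though not for all, the value without clone c of that HOX gene is given too. Each transfected gene had a probe set that was high in its own lines: HOXD9 (205605_at) was 2.73 ± 0.18 (SD, n = 3) in HA vector arrays and 6.99 ± 0.52 (n = 4) in HOXD9 lines, and HOXD13 (207397_s_at) was 6.93 ± 0.09 (n = 3) in V5 vector arrays and 12.43 ± 0.17 (n = 4) in HOXD13 lines. Other probe sets differed: HOXD9 205604_at was higher by 0.19 in HOXD9 lines than in HA vector arrays and was not called, and HOXD13 236681_at was 8.87 in HOXD13 clone c, below its vector arrays (8.93 to 8.95), and 10.15 to 10.42 in the other HOXD13 lines. Of 9 genes reported in HEK293, 6 passed the filter described next (NEFL, INA, CDH2, VIM, KRT8 and KRT18), while PAX2, LHX1 and NEFM did not.

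Probe sets that reached 5 or more on 3 or more of the 14 arrays were tested. Of the members' 32 probe sets 19 passed, at least 1 for each of the 10 genes, and 13 did not. Of those 13, 12 stayed at the floor of the GCRMA values, with no value above 2.74, and the other, COL4A1 211981_at, lay between 3.66 and 4.25. The LOX probe set that passed, and both of LAMA4, passed only through the HOXD13 lines, so passing itself selected for a high value there.

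FN1 encodes fibronectin, the ligand of the integrins below, and was higher in all 4 HOXD13 lines than in any V5 vector array. Its brightest probe set, 211719_x_at, read 10.55, 10.52 and 10.62 in V5 vector arrays 1, 2 and 3, and 11.68, 11.63, 11.65 and 11.38 in HOXD13 mix, a, b and c. The groups did not overlap, and clone c was the lowest of the HOXD13 lines. The difference of the means was 1.02 ± 0.13 (SE) on the log2 scale, a 2.03-fold higher level, and 1.09 without clone c.

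The other FN1 probe sets above the floor showed the same step. Probe set 210495_x_at read 9.83, 9.86 and 9.94 in V5 vector arrays and 11.07, 10.93, 11.02 and 10.55 in HOXD13 mix, a, b and c. Probe set 212464_s_at read 10.02, 10.08 and 10.05 against 11.14, 11.15, 11.18 and 10.90. Probe set 216442_x_at read 9.91, 9.96 and 10.08 against 11.13, 11.03, 11.05 and 10.65. In each of them the groups were apart and clone c was lowest, and the fold lay between 1.98 and 2.05. With the ACTB 3' minus 5' difference as a covariate the FN1 difference of 211719_x_at was 1.01. FN1 was represented by 7 probe sets, of which 3 stayed at the floor in every array.

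In the HA set FN1 was nearly level. Probe set 211719_x_at read 9.99, 9.98 and 9.98 in HA vector arrays 1, 2 and 3, and 10.00, 9.96, 9.84 and 10.40 in HOXD9 mix, a, b and c. The groups overlapped and only clone c lay clearly above the vector arrays. The difference was 0.07 ± 0.13 (SE; limma adjusted p = 0.755), and over the 4 probe sets it ran from 0.07 to 0.19 with adjusted p from 0.413 to 0.755. Without HOXD9 clone c it was -0.048 in 211719_x_at, 0.014 in 210495_x_at, 0.0065 in 212464_s_at and 0.125 in 216442_x_at.

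**Figure D1:**
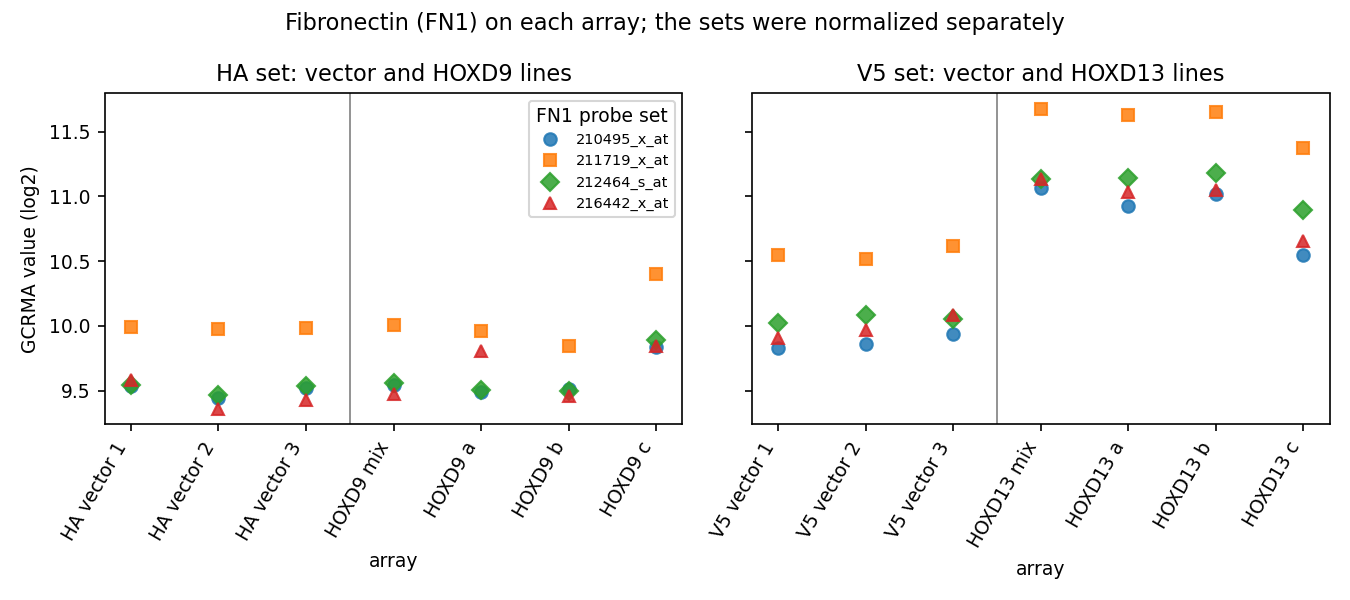
GCRMA value (log2, vertical axis) of the 4 FN1 probe sets above the floor on each of the 14 arrays, with the HA set on the left and the V5 set on the right; colours and shapes mark probe sets and the grey line parts vector arrays from HOX lines. All 4 HOXD13 lines lie above the 3 V5 vector arrays in every probe set, with clone c lowest, while in the HA set HOXD9 clone c (10.40 in 211719_x_at) is the highest array.

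FN1 and LAMA4 had a probe set higher in all 4 HOXD13 lines, and the 250 bases before their annotated starts are printed from RefSeq (GRCh38.p14), whose table held all 10 genes in 15 windows. LAMA4 was near the floor, as was LOX. LOX, also higher, has 3 windows there and is not printed. The FN1 window is chr2:215436069-215436318 and the LAMA4 window chr6:112254568-112254817, both on the minus strand and written 5′ to 3′ of the gene. Capitals mark a cAMP response element (TGACGTCA) and a CCAAT box.
FN1: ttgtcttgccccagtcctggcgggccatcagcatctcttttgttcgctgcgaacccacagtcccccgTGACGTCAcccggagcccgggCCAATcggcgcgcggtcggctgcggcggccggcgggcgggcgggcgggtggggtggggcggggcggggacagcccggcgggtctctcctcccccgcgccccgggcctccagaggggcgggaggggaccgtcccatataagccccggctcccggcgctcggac
LAMA4: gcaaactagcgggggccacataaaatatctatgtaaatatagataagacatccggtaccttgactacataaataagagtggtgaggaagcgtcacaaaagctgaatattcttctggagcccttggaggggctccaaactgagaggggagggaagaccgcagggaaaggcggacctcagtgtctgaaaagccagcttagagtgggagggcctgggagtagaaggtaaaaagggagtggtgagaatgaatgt
The cAMP response element, an 8-letter palindrome bound by CREB and ATF factors, starts 183 bases before the FN1 start, and the CCAAT box starts 162 bases before it. Counted on both strands, 1.65% of 35116 such windows of all genes hold TGACGTCA, and among the members' windows only that of FN1 does. CCAAT is in 32.0% of all windows and in windows of FN1, LOX and COL4A1. The FN1 window also holds GGGCGG, the GC box, 6 times, a motif in 42.6% of all windows. The AP-1 site TGANTCA (6.57% of all windows) and a pair of sites reported for HOXD13, CTCGTAAA (0.117%) and CCAATAAA (0.863%; its first letters overlap the CCAAT box), have no match in the members' windows. The LAMA4 window holds none of these 6 motifs. Its GC content is 48.4%, that of FN1 is 76.4%, and the median of all windows is 58.0%. A match is a description of the letters and not a site of binding, and a missing match says only that the letters are not in this window.

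ITGA5 and ITGB1 form the main fibronectin receptor, and ITGAV pairs with several beta chains into receptors of fibronectin and vitronectin. In the HOXD9 lines ITGAV and ITGB1 lay below the HA vector arrays, but no integrin probe set passed the test. ITGAV (202351_at) read 9.81, 9.82 and 9.75 in HA vector arrays and 9.35, 8.74, 9.58 and 8.37 in HOXD9 mix, a, b and c. All 4 lines were below all 3 vector arrays, clones a and c by the most. The difference was -0.78 ± 0.31 (SE) with a limma adjusted p of 0.201, and -0.57 without HOXD9 clone c. Over the 23 other settings its adjusted p ran from 0.0645, without HOXD13 clone c, to 0.565, with no filter, and the difference from -0.97 to -0.49.

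ITGB1 (211945_s_at) read 11.64, 11.67 and 11.65 in HA vector arrays and 11.37, 11.09, 11.47 and 10.61 in HOXD9 mix, a, b and c. The lines were again all below the vector arrays, with clone c lowest and clone b nearest to them. The difference was -0.52 ± 0.17 (SE; limma adjusted p = 0.178), or -0.35 without clone c. The other ITGB1 probe sets above the floor gave -0.33 (1553530_a_at; adjusted p = 0.226; all 4 lines below) and -0.52 (1553678_a_at; adjusted p = 0.186; groups overlapping). Without HOXD9 clone c, 1553530_a_at gave -0.22 and 1553678_a_at gave -0.37. The ACTB 3' minus 5' difference was 1.70 in HOXD9 clone a and 2.10 in clone c, the lines with the largest ITGAV shifts. In HA vector arrays it was 2.29 to 2.37. With that difference as a covariate, ITGAV stood at -0.49 and ITGB1 at -0.45, with adjusted p of 0.215 and 0.191.

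ITGA5 (201389_at) read 5.19, 5.48 and 5.42 in HA vector arrays and 5.61, 5.05, 5.34 and 5.78 in HOXD9 mix, a, b and c. The groups overlapped and the difference was 0.09 ± 0.17 (SE; limma adjusted p = 0.768), or -0.024 without clone c. In the V5 set it read 5.95, 6.26 and 5.97 in vector arrays and 5.97, 5.85, 6.02 and 5.55 in HOXD13 lines. Here too the groups overlapped, with a difference of -0.21 ± 0.17 (SE), or -0.12 without clone c and -0.11 without V5 vector 2.

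In the HOXD13 lines the other integrin members overlapped their vector arrays. ITGAV read 10.68, 10.68 and 10.66 in V5 vector arrays and 10.48, 10.20, 9.87 and 11.26 in HOXD13 mix, a, b and c. Mix, a and b lay below the vector arrays and clone c above them, so the difference of -0.22 ± 0.31 (SE) became -0.49 without clone c and -0.02 without clone b. ITGB1 (211945_s_at) read 12.44, 12.38 and 12.36 in vector arrays and 12.28, 12.34, 12.24 and 12.46 in HOXD13 lines. Its values differed little, by -0.06 ± 0.17 (SE), and its other probe sets by -0.09 and -0.03.

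**Figure D2:**
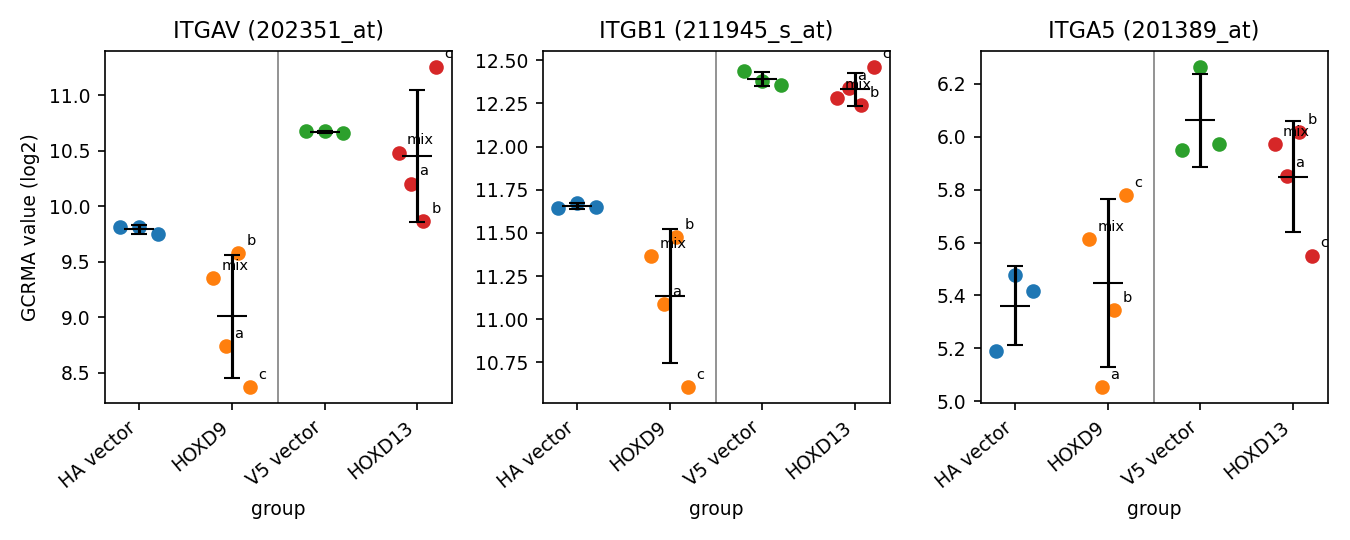
GCRMA values (log2, vertical axis) of ITGAV, ITGB1 and ITGA5, 1 panel each with its own scale, for the 4 groups; points are arrays, letters name HOX lines, and bars are the mean and SD (n = 3 for vectors, n = 4 for HOX lines). HOXD9 lines lie below the HA vector arrays for ITGAV (8.37 to 9.58 against 9.75 to 9.82) and ITGB1 and overlap them for ITGA5, and HOXD13 clone c is the highest V5-set array for ITGAV.

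Of the laminin chains, LAMA4, an alpha chain of vessel and fat basement membranes, was higher in the HOXD13 lines. Its probe set 202202_s_at read 4.83, 4.88 and 5.13 in V5 vector arrays and 5.39, 5.56, 5.78 and 5.78 in HOXD13 mix, a, b and c. All 4 lines were above the vector arrays, by a mean of 0.68 ± 0.17 (SE) or 1.60-fold. Both tested LAMA4 probe sets were near the floor and passed the filter only through the HOXD13 lines. A fold of LAMA4 thus depends on the background model. The dimmer 210089_s_at read 4.69, 4.67 and 4.64 in vector arrays and 5.87, 6.60, 6.77 and 4.44 in the lines. Mix, a and b were well above the vector arrays while clone c was below them, so that the groups overlapped and the mean difference was 1.26 ± 0.40 (SE), or 1.75 without clone c.

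LAMA4 lay low in the HA set. Probe set 202202_s_at read 3.69, 3.53 and 3.83 in HA vector arrays and 3.83, 3.77, 3.86 and 4.46 in HOXD9 mix, a, b and c. Clone c alone was clearly above the vector arrays, and the difference of 0.30 ± 0.17 (SE) had a limma adjusted p of 0.316 and was 0.14 without clone c. Probe set 210089_s_at was between 2.97 and 3.28 on all 7 arrays of that set.

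LAMC1 is the gamma chain found in most laminins. Its brighter probe set, 200771_at, read 11.20, 11.21 and 11.23 in V5 vector arrays and 10.84, 10.71, 10.61 and 10.75 in HOXD13 mix, a, b and c. The lines were all lower, by 0.48 ± 0.09 (SE) on the log2 scale or 1.39-fold. The dimmer 200770_s_at read 7.37, 7.29 and 7.43 against 7.01, 7.58, 7.74 and 6.81. There clones a and b were above the vector arrays and mix and c below, and the mean difference was -0.08 ± 0.22 (SE), turning to 0.08 without clone c.

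In the HA set 200771_at read 10.54, 10.62 and 10.53 in vector arrays and 10.39, 10.32, 10.39 and 10.49 in HOXD9 mix, a, b and c. The lines were all below the vector arrays, by a difference of -0.16 ± 0.09 (SE) that did not pass the test (limma adjusted p = 0.300). Probe set 200770_s_at read 6.60, 6.35 and 6.53 against 6.68, 6.64, 6.48 and 7.21, a difference of 0.26 ± 0.22 (SE; adjusted p = 0.480), or 0.10 without clone c. The probe sets of LAMC1 thus differed in sign, and their mean gave 0.047.

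LAMB1, the beta chain of several laminins, overlapped its vector arrays in the HOXD13 lines. Probe set 201505_at read 8.05, 7.95 and 8.0 in V5 vector arrays and 7.70, 7.94, 7.81 and 8.32 in HOXD13 mix, a, b and c. Clone c was the highest array and the other lines were below the vector arrays, so the difference was -0.06 ± 0.17 (SE) and -0.19 without clone c. Probe set 211651_s_at read 6.92, 6.75 and 6.97 against 6.90, 6.64, 6.62 and 7.26, with clone c again highest and a difference of -0.03, or -0.16 without it. In the HA set 201505_at read 7.04, 6.90 and 6.75 in vector arrays and 7.09, 6.66, 6.80 and 7.26 in HOXD9 lines, a difference of 0.05 ± 0.17 (SE; limma adjusted p = 0.853), or -0.049 without clone c. Probe set 211651_s_at read 5.93, 5.79 and 5.97 against 6.02, 6.04, 6.18 and 6.19. It was the 1 member probe set with all 4 HOXD9 lines above the vector arrays, by 0.21 ± 0.14 (SE; adjusted p = 0.378).

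COL18A1 encodes a basement membrane collagen whose end fragment is endostatin. Probe set 209082_s_at read 7.30, 7.30 and 7.39 in V5 vector arrays and 6.78, 6.31, 6.25 and 6.76 in HOXD13 mix, a, b and c. All lines were lower, clones a and b by the most, and the mean was lower by 0.80 ± 0.17 (SE) on the log2 scale or 1.75-fold. The other probe set, 209081_s_at, read 7.13, 7.16 and 7.13 against 7.08, 7.26, 7.43 and 6.62. Its groups overlapped, with clones a and b above the vector arrays and clone c below, and the difference was -0.04 ± 0.22 (SE), turning to 0.12 without clone c.

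Among the HA arrays 209082_s_at read 6.51, 6.48 and 6.50 in vector arrays and 6.59, 6.78, 6.45 and 7.09 in HOXD9 mix, a, b and c. Probe set 209081_s_at read 6.18, 6.15 and 6.16 against 6.27, 6.23, 6.12 and 7.06. Clone c was the highest array in both and clone b the lowest. The differences were 0.23 ± 0.17 and 0.26 ± 0.22 (SE; limma adjusted p = 0.399 and 0.466), and without clone c they were 0.11 and 0.05.

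COL4A1 is a chain of type IV collagen, the network former of basement membranes. Probe set 211980_at read 8.60, 8.83 and 8.72 in V5 vector arrays and 8.28, 8.26, 8.15 and 8.52 in HOXD13 mix, a, b and c. All 4 lines were below the vector arrays, clone c nearest to them, with a difference of -0.42 ± 0.15 (SE). With HOXD9 and its vectors COL4A1 read 7.88, 7.86 and 7.89 in vector arrays and 7.97, 7.57, 7.75 and 8.23 in HOXD9 lines. Mix and c were above and a and b below, and the difference was 0.0042 ± 0.15 (SE; limma adjusted p = 0.987), or -0.11 without clone c.

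LOX was at the floor in the HA set and low in the V5 set. Probe set 215446_s_at read 4.57, 4.15 and 4.75 in V5 vector arrays and 5.21, 5.51, 4.75 and 5.27 in HOXD13 mix, a, b and c. All lines were above the vector arrays, although clone b matched the highest of them to the printed digits. The difference was 0.70 ± 0.18 (SE), a 1.62-fold higher level near the floor, where a fold depends on the background model. Among the HA arrays the same probe set read 2.48, 2.48 and 2.88 in vector arrays and 2.48, 2.38, 2.48 and 2.41 in HOXD9 lines. All 7 values were at the floor, where the order of the groups (lines below vector arrays) is not read, and the difference was -0.18 ± 0.18 (SE; limma adjusted p = 0.546).

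**Figure D3:**
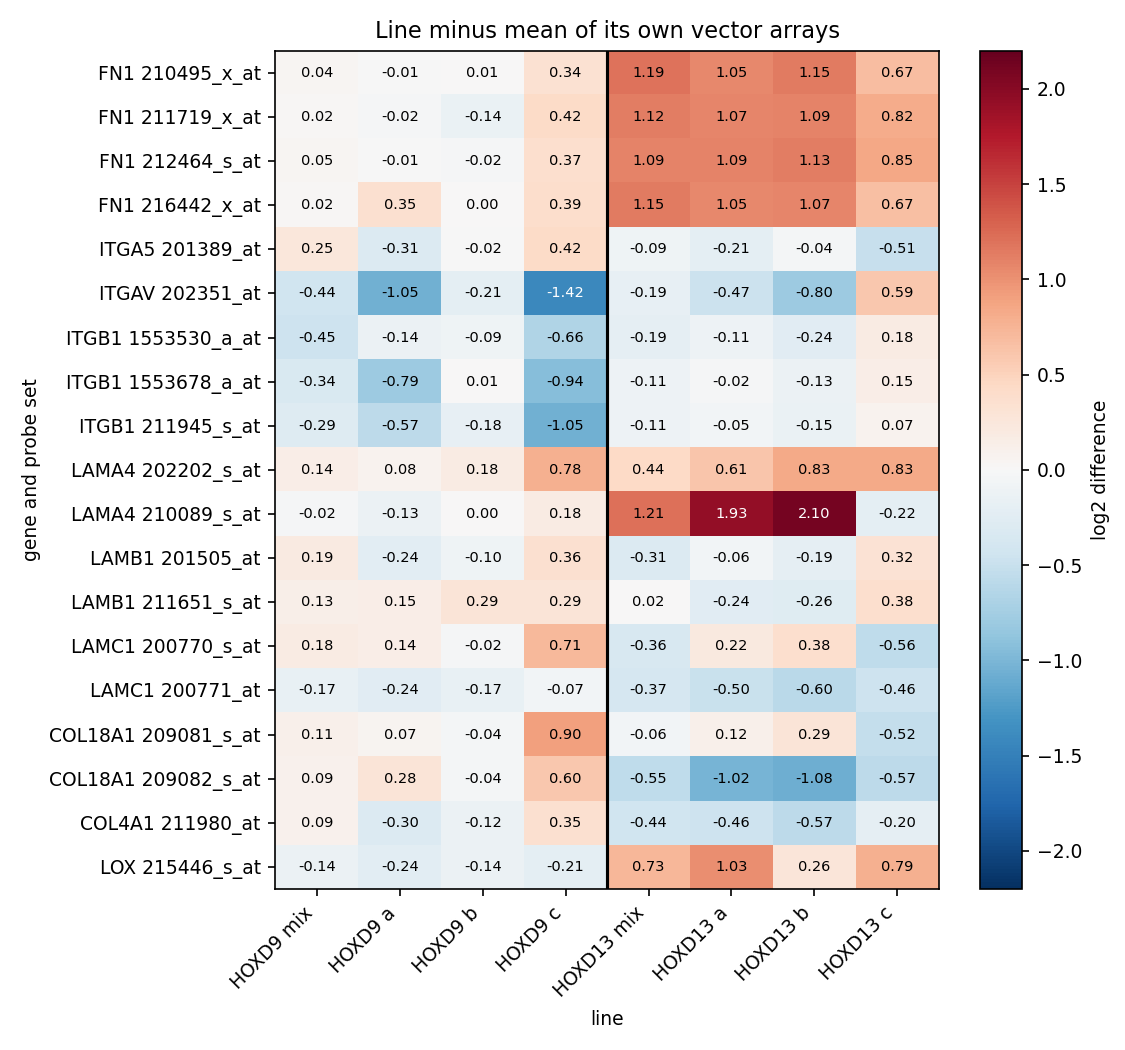
Log2 difference of each HOX line (columns) from the mean of the 3 vector arrays of its own tag, for the 19 member probe sets tested (rows); red is higher, blue lower, and the black line parts HOXD9 from HOXD13 lines. The 4 FN1 rows are higher in all HOXD13 lines (0.67 to 1.19), the ITGAV row is lower in all HOXD9 lines (-0.21 to -1.42), and HOXD13 clone c is higher for ITGAV (0.59) where the other HOXD13 lines are lower.

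Probe sets of 1 gene disagreed in the HOXD13 lines for LAMC1, COL18A1 and LAMA4. In LAMC1 the dimmer probe set moved by 0.01, 0.72, 0.97 and -0.10 more than the brighter in HOXD13 mix, a, b and c. In COL18A1 the same quantity was 0.49, 1.14, 1.37 and 0.05, and in LAMA4 it was 0.76, 1.32, 1.28 and -1.05. Clones a and b showed the widest disagreement for all 3 genes. The ACTB 3' minus 5' difference was 2.13, 2.01, 1.82 and 2.80 in the same order, so the HOXD13 lines with the widest disagreement had the lowest values. The HOXD9 lines did not show this order. There clone a had the lowest ACTB difference (1.70), while clone c (2.10) had the widest disagreement for all 3 genes. For LAMC1, COL18A1 and LAMA4 the disagreement was 0.39, -0.22 and -0.22 in HOXD9 clone a. In HOXD9 clone c it was 0.78, 0.31 and -0.60. The part of RNA quality in these shifts was not tested, and where on each transcript the probe sets lie is not given in the sources used here. For LAMC1 and COL18A1 the lower level thus rests on 1 of 2 probe sets. As means over a gene's probe sets the differences were -0.28 for LAMC1, -0.42 for COL18A1 and 0.97 for LAMA4.

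**Figure D4:**
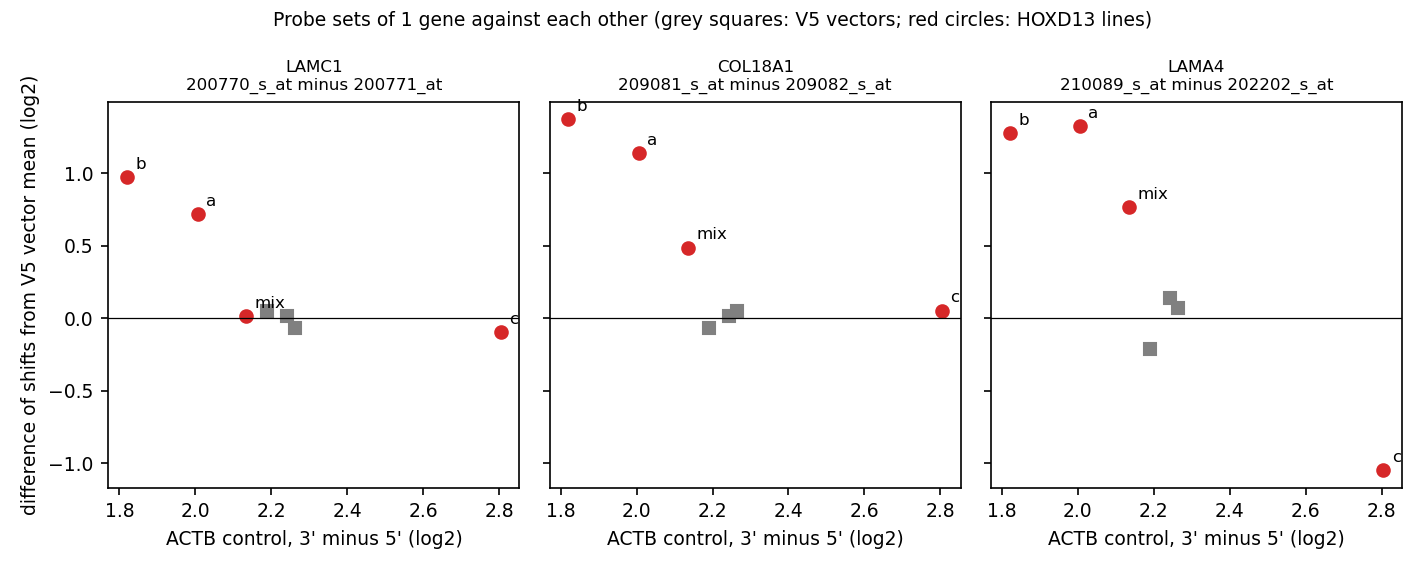
For LAMC1, COL18A1 and LAMA4, the shift of the dimmer probe set minus that of the brighter, each from its V5 vector mean (log2, vertical axis), against the ACTB 3' minus 5' difference of the array (log2, horizontal axis); grey squares are V5 vector arrays and red circles HOXD13 lines. Clones b and a, with the lowest ACTB differences (1.82 and 2.01), lie highest in the panels, up to 1.37, and clone c, at 2.80, lies below the vector arrays for LAMC1 and LAMA4.

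Counted over the 19 tested member probe sets, none was called in the HOXD9 lines at a limma adjusted p under 0.05, the smallest adjusted p was 0.178, and 4 had an unadjusted p under 0.05. Over all 19816 probe sets tested, 0.0202% were called higher and 0.0101% lower, 6 in all, while 4088 had an unadjusted p under 0.05. Without HOXD13 clone c 787 probe sets were called, none of them a member. By position, 1 member probe set had all 4 HOXD9 lines above the 3 vector arrays, against 18% of all probe sets, and 5 had them all below, LOX at the floor among them, against 14.2%; the other 13 overlapped. The members' median difference was 0.07, beside 0.04 over all probe sets. With 1 probe set per gene, 0 of the 10 genes were called and 2 had an unadjusted p under 0.05, where 0.00966% of 10349 genes were called higher and 0% lower.

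In the HOXD13 lines 6 of the 19 were called higher and 2 lower, where 2.49% and 6.19% of all probe sets were. The 6 are the 4 of FN1, LAMA4 202202_s_at and LOX 215446_s_at, and the 2 are LAMC1 200771_at and COL18A1 209082_s_at. All 4 lines were above the vector arrays in 6 (8.6% of all probe sets) and below in 3 (18.1%), COL4A1 211980_at being the third; the remaining 10 overlapped. The median difference was -0.04, beside -0.02 over all probe sets. By gene, 3 of 10 were called higher (2.88% of all genes) and 2 lower (7.76%). Nothing is read from these counts, since results of this comparison chose the genes. The LAMA4 and LOX probe sets also passed the filter only through the HOXD13 lines. Without clone c they were 10 probe sets, 7 higher and 3 lower, and without V5 vector 1, 2 and 3 in turn they were 5, 5 and 4.

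The lines of a HOX gene differed among themselves. HOXD9 clone c was the highest HOXD9 line in 14 of the 19 member probe sets, against 41.3% of all tested probe sets. HOXD13 clone c was the highest line in 8 (41.7% of all) and the lowest in 8 (45.9%), and clone b was lowest in 9 (30.6%), so the counts of clone c were near the shares over all probe sets. The members' shares have no test, since several of these probe sets read the same gene.

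Over the 14 arrays, the genes whose deviations from the vector mean of their own tag followed those of FN1 most closely were DAPK1 (Pearson r = 0.98), HOXC9 (0.97), AMBN (0.97), OR51E2 (0.96) and SCIN (0.96). They encode a death-associated kinase, a HOX factor, an enamel matrix protein, an olfactory receptor and an actin-severing protein. DAPK1 deviated by 0.63, 0.60, 0.61 and 0.54 in HOXD13 mix, a, b and c and by at most 0.23 in any HOXD9 line. OR51E2 deviated by 4.27 to 4.94 in the HOXD13 lines and by at most 0.00033 on any vector or HOXD9 array. AMBN deviated by at most 0.00033 on the HA vector arrays. Spreads this small were otherwise seen in member probe sets at the floor. Among the members r with FN1 was 0.82 for LAMA4, 0.79 for LOX, -0.86 for LAMC1, -0.79 for COL18A1, -0.67 for COL4A1 and between -0.30 and 0.02 for the 3 integrin genes and LAMB1. These coefficients describe mostly the step between the HOXD13 lines and the other arrays, which share a source within each group, and have no p.

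The rest of the matrix and adhesion genes were read from 7 lists of 187 genes, without the members, of which 93 were tested with 1 probe set per gene. In the HOXD9 lines none was called by limma, and 15 (16.1%) had an unadjusted p under 0.05, beside 23.5% of all genes. Without HOXD9 clone b 7 were called, and without HOXD13 clone c 3. In the HOXD13 lines 2 of the 93 rose and 7 fell, where 2.88% of all genes tested rose and 7.76% fell. Of the 93, 25 (26.9%) had an unadjusted p under 0.05, beside 27.0% of all genes. The same shares over all genes stand beside the counts of the single lists below. These lists were chosen with earlier results of these arrays known, so the HOXD13 p-values below are not independent of that knowledge. With each array centred on its median 4 of 9 called genes were higher, and without HOXD13 clone c 14 of 24. The median of all genes was 0.08 in HOXD9 and -0.03 in HOXD13 lines.

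Of 16 collagen modification and crosslinking enzymes tested, 2 fell with HOXD13 and none rose, beside 7.76% and 2.88% of all genes tested. The list's median was -0.17. LOXL4, a lysyl oxidase relative, fell from 7.47 ± 0.03 (SD, n = 3) in V5 vector arrays to 6.72 ± 0.08 (n = 4), a difference of -0.75 ± 0.13 (SE; limma adjusted p = 0.0041). CRTAP, a subunit of the complex that hydroxylates collagen prolines, fell from 10.31 ± 0.04 to 9.68 ± 0.01, a difference of -0.63 ± 0.10 (SE; adjusted p = 0.0027). In the fit over probe sets, 3 of the 5 CRTAP probe sets tested were called lower and the others were not called. For both genes the groups did not overlap, and both kept their call in all 22 other settings.

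Of 25 genes of the integrin adhesion complex, the proteins on the inner side of integrins, 1 rose and 2 fell with HOXD13, with a median of -0.12. PARVB, beta-parvin, which binds actin and integrin-linked kinase, fell from 5.74 ± 0.20 (SD, n = 3) to 4.30 ± 0.47 (n = 4), a difference of -1.43 ± 0.25 (SE; limma adjusted p = 0.0049), and kept its call in all 22 other settings. PARVB read 4.26, 4.27, 3.77 and 4.91 in HOXD13 mix, a, b and c, all under the filter value of 5. The size of its difference thus depends on the background model, and only 1 PARVB probe set was tested. ZYX, zyxin, differed by -0.77 (limma adjusted p = 0.039) and PEAK1, a pseudokinase of focal adhesions, by 0.53 (adjusted p = 0.046). The ZYX call was lost when any of HA vector 1, 2 and 3, V5 vector 1, 2 and 3, HOXD9 mix and HOXD13 mix, a and b was left out (adjusted p 0.0537 to 0.155). That of PEAK1 was lost without any of these or HOXD9 b (0.0525 to 0.165), and PEAK1 was not called in the fit over probe sets.

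Of 11 other laminin and basement membrane genes, 1 rose and 1 fell with HOXD13, with a median of -0.21. NID2, nidogen-2, a linker of laminin and type IV collagen, rose from 6.87 ± 0.12 (SD, n = 3) to 7.71 ± 0.52 (n = 4), a difference of 0.84 ± 0.23 (SE; limma adjusted p = 0.036). Its values were 7.60, 7.98, 8.23 and 7.03 in HOXD13 mix, a, b and c, with clone c nearest the vector arrays, and the difference was 1.06 without that clone. LAMB2, another laminin beta chain, fell by 0.51 ± 0.15 (SE; adjusted p = 0.044) on the log2 scale and was not called in the fit over probe sets. Of 7 other collagens, COL13A1, a transmembrane collagen, fell by 0.71 (adjusted p = 0.036), and the list's median was -0.13. The calls of LAMB2, NID2 and COL13A1 were each lost without any of HA vector 1, 2 and 3, V5 vector 1, 2 and 3 and HOXD13 mix, a and b (adjusted p 0.0547 to 0.143).

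Of 14 other matrix glycoproteins, CCN3, a secreted matricellular protein, fell by 0.59 (limma adjusted p = 0.026), with a list median of 0.07. This call was lost without V5 vector 1, 2 or 3 or HOXD13 a or b (adjusted p 0.0670 to 0.104). None of 7 other integrins and none of 13 matrix-degrading enzymes and their inhibitors was called with HOXD13, with medians of -0.07 and 0.04, and neither list had an unadjusted p under 0.05. In the HOXD9 lines the medians of the 7 lists ran from -0.15 for the other integrins to 0.30 for the crosslinking enzymes.

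**Figure D5:**
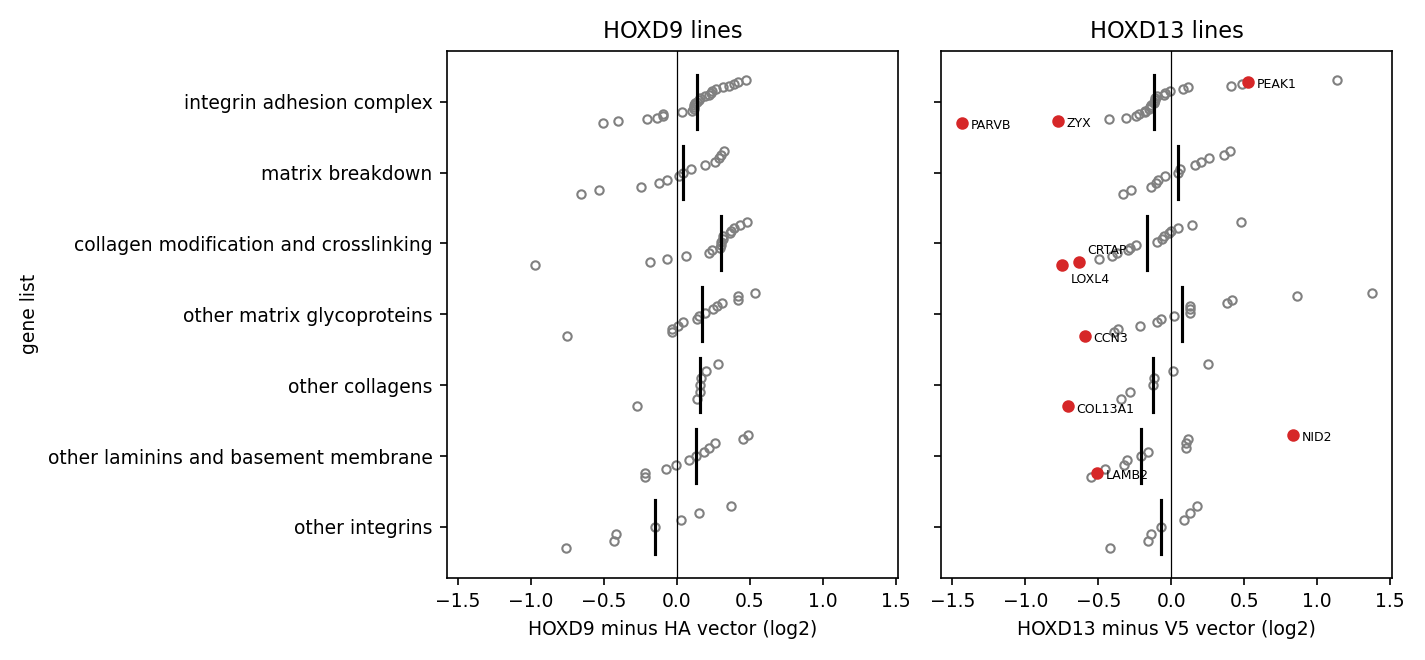
Log2 difference of HOX lines from their vector arrays (horizontal axis; HOXD9 left, HOXD13 right) for the 93 genes of 7 lists (rows); each circle is a gene, red and named where called at a limma adjusted p under 0.05, and the black bar is the list's median. No HOXD9 circle is red, and in the HOXD13 panel 7 red circles lie below 0 (PARVB lowest at -1.43) and 2 above.

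Markers of other cell types, in lists likewise chosen with earlier results of these arrays known, were read beside these results. All arrays are of HEK293, an established cell line, so these values describe transcripts of that line. In bulk RNA, fewer cells with a transcript and less of it per cell cannot be told apart. Of 10 fibroblast markers 1, COL1A1, was tested and not called, and the list's summed level, on the log2 scale, was 7.95 to 8.10 in V5 vector arrays and 7.71 to 8.30 in HOXD13 lines, and 7.63 to 7.70 in HA vector arrays and 6.45 to 8.35 in HOXD9 lines. None of 6 endothelial markers, and none of the 3 leukocyte markers found out of 5, reached a value of 5 on any array. Of 6 smooth muscle markers only ACTA2 did. It fell by 1.46 ± 0.18 (SE; limma adjusted p = 0.000913), and the summed level of that list was 10.63 to 10.71 in V5 vector arrays and 9.01 to 9.81 in HOXD13 lines. The part of this shift in the FN1 and laminin differences was not tested.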

How the data were processed

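RNA was hybridised to 14 Affymetrix arrays. The authors deposited 1 log2 value per probe set, made with GCRMA per the submitters' processing notes; the log2 scale was read from the values (1.83 to 15.5). The version of GCRMA, like the build, is not given in the sources used here. Sorted values matched to within 0.0020 inside each tag set of 7 arrays, so the sets were normalized separately. Precision is limited by the number of arrays. In the platform annotation 41097 probe sets had a single gene symbol, 1801 several and 11777 none; symbols were updated through RefSeq (GRCh38.p14), which matched 41043 of the first. The 62 array controls were left out.

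Probe sets with a value of at least 5 on at least 3 arrays (19816) were fitted as 4 group means with limma 3.58.1 (lmFit, eBayes) under R 4.3.3 (10 residual degrees of freedom, prior 3.01; two-sided, Benjamini-Hochberg over all tested, called under 0.05). The 4 groups share an estimate of the spread, so SEs and p-values of the HOXD9 comparison also depend on the spread of the HOXD13 lines, and the reverse. All tests named limma are this fit, and the other lists used the same fit over 10349 genes, each read by its probe set of highest mean. Tables were handled in data.table (version 1.17.8) and plots made in matplotlib 3.10.9 under Python 3.11.15. The scripts were tested on simulated data. Alternatives changed the filter, the feature, the arrays fitted, centring, weights, the variance prior, an ACTB covariate and the arrays left out. Of the other lists, up to 3 called genes with the largest difference were named, and the 5 genes most like FN1. The members and lists were chosen with earlier results of these data known. The fibronectin protein sequence is not printed here.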

Additional observations from a re-analysis of the deposited data

Results flagged for a closer look

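In a group of 4 lines, a line is listed where its gap to its nearest neighbour takes more than the critical share of the group's range (Dixon's test). With independent samples chance lists about 1 in 20 groups, and 20 groups of 4 lines were checked. The lines of a HOX gene share a source, so this rate need not hold here. FN1 in HOXD13 clone c, at 11.38 on the log2 scale, was below the other HOXD13 lines with a gap of 0.84 of the range. The FN1 values of the HOXD13 lines were known when the genes were chosen, so this entry is a description and carries no test. LAMA4 in HOXD9 clone c, at 4.46, was above the other HOXD9 lines with a gap of 0.86 of the range.

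The shift of LOX from its own vector arrays was negative in all 4 HOXD9 lines and positive in all 4 HOXD13 lines, a HOXD9 minus HOXD13 difference of -0.88 on the log2 scale. This difference was not tested, and LOX was at the floor of the values in all 7 arrays of the HA set.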

How the results depend on the processing

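The count of member probe sets called in the HOXD9 lines was 0 in all 23 other settings. Of the member differences in the HOXD9 lines, LAMC1 changed sign to 0.047 as a mean of its probe sets. Leaving out 1 array gave -0.048 to 0.14 for FN1, -0.024 to 0.22 for ITGA5, -0.049 to 0.15 for LAMB1 and -0.11 to 0.11 for COL4A1, none of them called. The count of all probe sets called in the HOXD9 lines (6) became 11 with no filter, 1 with 1 probe set per gene, 2 with the mean of a gene's probe sets, 1 with only the 7 arrays of the tag set, 33 with the ACTB covariate and 1 to 787 with 1 array left out, 787 being without HOXD13 clone c. That of the HOXD13 lines (1721) became 1112, 1101, 1144, 1181, 4454 and 371 to 6496 in the same order, and 2898 with weights per group. HOXD13 clone c is in neither group mean of the HOXD9 comparison and enters that fit through the spread shared by the 4 groups. Beyond this and the fewer features of the fits over genes, the cause of the moves in these counts was not tested. Higher calls were 494 of 1721, 1961 of 4454 with the ACTB covariate, 1184 of 2898 with weights per group and 3419 of 6496 without HOXD13 clone c. Member probe sets called in the HOXD13 lines (8) became 5 with 1 probe set per gene, 3 with the mean of probe sets and 4 to 10 with 1 array left out. Genes of the other lists called in the HOXD13 lines (9) became 15 with weights per group, 19 with the ACTB covariate and 3 to 24 with 1 array left out. In the HOXD9 lines (0) they were 0 to 7, with 7 without HOXD9 clone b and 3 without HOXD13 clone c. The calls of LAMB2, NID2, COL13A1, ZYX and PEAK1 were also lost with no filter, those of NID2 and PEAK1 with only the 7 arrays, those of LAMB2 and COL13A1 after centring and that of LAMB2 with a robust prior. Weights per group, and for the other lists the filters, centring, prior, covariate and left-out arrays, were chosen after seeing the data. Array quality weights per array could not be fitted and were not run. No paired analysis was possible because the groups compared share no replicate numbers: the vector arrays are numbered and the HOX lines are mix, a, b and c. Signals near the floor (LOX and both LAMA4 probe sets), and low ones such as PARVB in the HOXD13 lines, limit what can be read there.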
